A study of Mus musculus with 9 samples.

Results

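The genes described here belong to class II antigen presentation and were followed in mouse kidney cortex after injury with cisplatin: Ciita, H2-Aa, H2-Ab1, H2-Eb1, Cd74, H2-DMa, H2-DMb1, H2-DMb2 and Ctss. They were found by their Entrez gene numbers, and all 9 were among the 17963 genes of the deposited table and passed the filter on low counts that left 13954 genes for testing. The set was put together with values of these libraries in view. Ciita was chosen by its expression level, which had been noted as highest in the YSJZD libraries. The others were chosen by their part in the pathway, when the rises of H2-DMa, H2-DMb1 and Ctss were already known. RNA was sequenced from 9 samples taken on day 4, 3 from each of 3 groups of wild-type mice. Control mice were given saline by intraperitoneal injection with water by gavage. The cisplatin group was injected by that route with cisplatin, a platinum compound used in chemotherapy and toxic to kidney tubule cells, and given water by gavage. The YSJZD group received cisplatin by the same route and Yishen Jiangzhuo decoction, a herbal medicine abbreviated YSJZD, by gavage. All animals of the last 2 groups thus received cisplatin, and the sources used here give no group with the decoction alone. Nor do they give the strain, sex or age of the mice or the doses. They also do not say that each sample came from its own mouse, so that p-values cover the spread between samples, which may be technical.

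Class II molecules are pairs of an alpha and a beta chain that show peptides from the endocytic pathway to CD4 T cells. The genes are transcribed when Ciita, a coactivator that does not itself bind DNA, joins the RFX complex, CREB and NF-Y on short promoter elements called the X and Y boxes. New chains assemble on the invariant chain, encoded by Cd74, which cathepsin S (Ctss) trims to a peptide that H2-DM then exchanges for antigen. Dendritic cells, B cells and macrophages carry class II constantly or on activation, and kidney tubule and endothelial cells can acquire it under interferon gamma, which acts on the Ciita gene through factors such as Irf1.

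The promoter elements through which Ciita acts are shown for the 4 class II genes whose RefSeq promoter held a match. Promoters were in the RefSeq table (GRCm38.p6) for 6 of the 9 genes, in 7 windows that run from 250 bases before to 50 bases after a start. The search, on both strands, was for the Y box letters CTGATTGG and the conserved core of the X box, and, added after the sequences had been seen, for the shorter Y box letters TGATTGG that the longer form contains. The 200 bases before the start are printed 5′ to 3′ on the strand of the gene, with matches in capitals. They are from chr17:34305667-34305866 (plus strand) for H2-Eb1, chr17:34152991-34153190 (plus strand) for H2-DMb1, chr17:34145049-34145248 (plus strand) for H2-DMb2 and chr17:34287824-34288023 (minus strand) for H2-Aa.
H2-Eb1: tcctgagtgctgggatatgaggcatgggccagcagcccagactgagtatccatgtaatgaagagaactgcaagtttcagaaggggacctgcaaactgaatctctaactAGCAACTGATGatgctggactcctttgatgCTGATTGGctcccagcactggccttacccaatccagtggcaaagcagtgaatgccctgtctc
H2-DMb1: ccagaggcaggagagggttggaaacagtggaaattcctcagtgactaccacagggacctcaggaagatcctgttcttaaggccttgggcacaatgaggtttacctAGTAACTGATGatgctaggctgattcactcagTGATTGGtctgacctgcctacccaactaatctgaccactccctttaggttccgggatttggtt
H2-DMb2: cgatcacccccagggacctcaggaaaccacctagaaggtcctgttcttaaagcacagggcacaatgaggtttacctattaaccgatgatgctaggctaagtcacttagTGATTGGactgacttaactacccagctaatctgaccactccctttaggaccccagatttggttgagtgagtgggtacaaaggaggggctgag
H2-Aa: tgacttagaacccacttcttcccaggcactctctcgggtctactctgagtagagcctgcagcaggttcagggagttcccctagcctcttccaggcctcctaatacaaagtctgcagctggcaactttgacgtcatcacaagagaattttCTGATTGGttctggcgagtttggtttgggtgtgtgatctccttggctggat

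H2-Eb1, the beta chain of I-E, held the X box core from base -92 to -82 before its start and the Y box letters from -62 to -55. In H2-DMb1, a beta chain of H2-DM, the X box core lay from -95 to -85 and the shorter Y box letters from -63 to -57. The gap between the X box core and the shorter Y letters was 20 bases in H2-Eb1 and 21 bases in H2-DMb1. Of the letters searched, H2-DMb2, the other DM beta chain, had only the shorter Y box letters, from -92 to -86. H2-Aa, the alpha chain of I-A, had only the Y box letters, from -51 to -44. The X box core was searched by exact match, so a divergent X box in these promoters would be missed. H2-DMb2 holds attaaccgatg before its Y letters, close to the X box core of H2-DMb1. No window of H2-DMa or Ctss held any of these letters. The windows of H2-DMa were not matched to the 3 transcripts counted for this gene, so letters at another start would be missed. Over all 32851 promoters of the table, 4.10% held the Y box letters, 7.82% the shorter ones and 0.968% the X box core. The X box core and the shorter Y box letters stood together in 18 promoters, or 0.0548%. These are matches of letters in a reference sequence, and no binding was measured.

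Ciita, the coactivator itself, was highest in YSJZD and lowest in cisplatin. It was at 2.40, 2.11 and 3.05 CPM (counts scaled to the adjusted library total) in the control libraries 1 to 3, at 0.922, 1.20 and 2.11 CPM in the cisplatin libraries, and at 9.28, 8.73 and 7.47 CPM in the YSJZD libraries. All 3 YSJZD libraries thus lay above the other 6, while the highest cisplatin and the lowest control library were equal at this rounding. The means were 2.52 ± 0.478 CPM in control, 1.41 ± 0.622 CPM in cisplatin and 8.49 ± 0.926 CPM in YSJZD (SD, n = 3 each). The fitted log2 fold change was -0.84 ± 0.34 (SE) for cisplatin over control, 2.59 ± 0.34 for YSJZD over cisplatin, which is 6.03-fold, and 1.75 ± 0.32 for YSJZD over control, which is 3.36-fold. Because Ciita was chosen for this pattern, these are descriptions with no test. They rest on few reads, with 33, 29 and 46 expected counts in control, 17, 21 and 34 in cisplatin and 159, 133 and 126 in YSJZD. Reads were divided over 5 Ciita transcripts, and the leading one in YSJZD held 71.1% to 78.1% of the gene's counts there, 58.7% to 81.9% in control and 29.7% to 100% in cisplatin, so no shift between transcripts can be read at this depth.

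**Figure D1:**
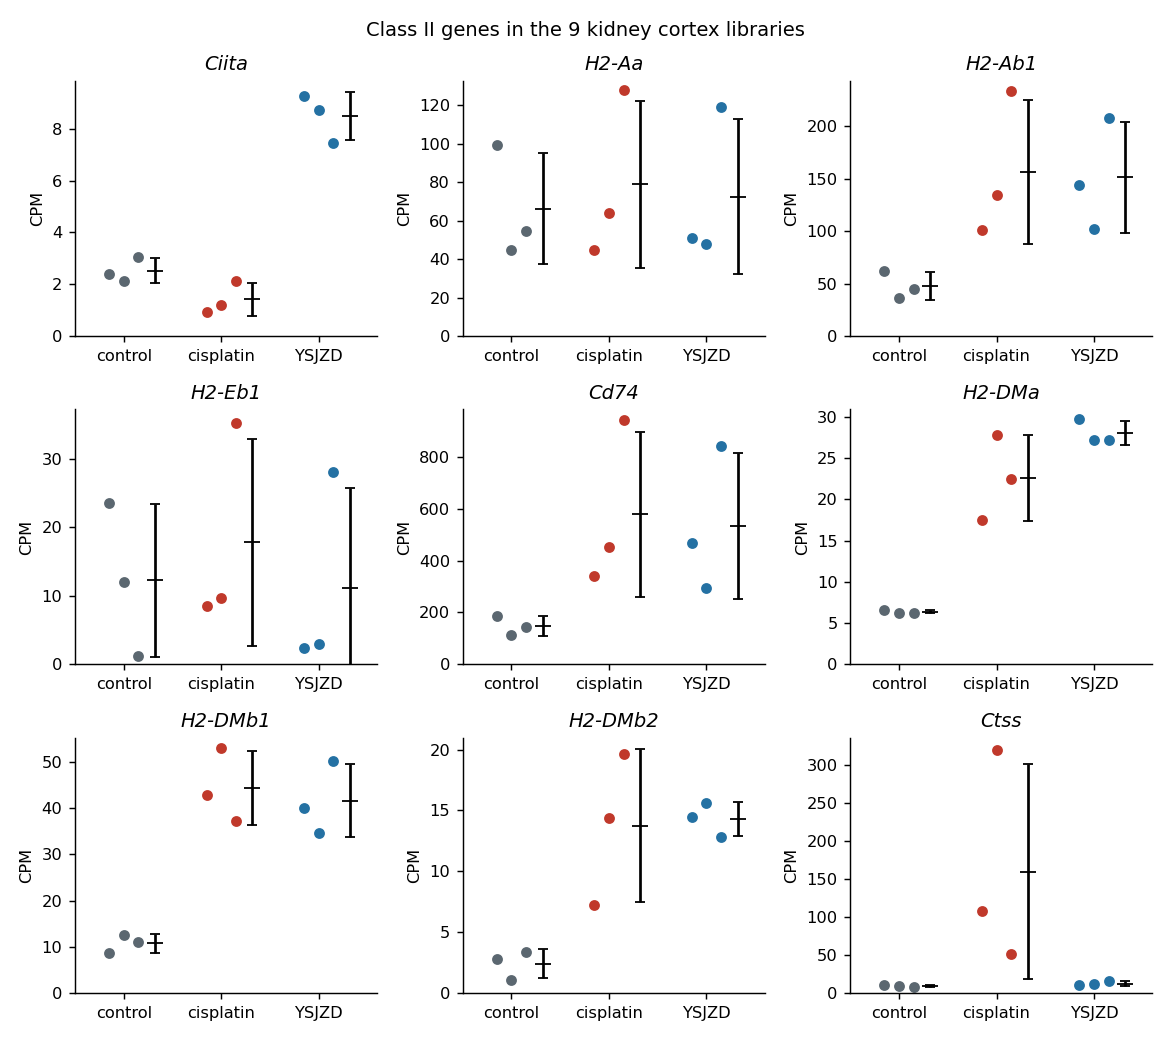
Level of each of the 9 class II genes in CPM (vertical axes, each from 0) in control, cisplatin and YSJZD libraries. Points are libraries 1 to 3 from left to right, and the bar gives the mean ± SD (n = 3), drawn no lower than 0. Ciita stands apart in YSJZD at 7.47 to 9.28 CPM, Ctss in cisplatin at 51.0 to 321 CPM, and H2-DMa, H2-DMb1 and H2-DMb2 in both groups given cisplatin.

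Cisplatin against control asks which class II genes the injury moves. Of the 8 genes other than Ciita, 6 rose and none fell: H2-Ab1, Cd74, H2-DMa, H2-DMb1, H2-DMb2 and Ctss. The rises of H2-DMa, H2-DMb1 and Ctss were known when the genes were chosen. Their calls, and the counts and median over the set, are therefore a description. H2-Aa and H2-Eb1 did not pass the test. The background was high, since 54.6% of all tested genes were called in this comparison, 28.6% higher and 26.0% lower, at a Benjamini-Hochberg adjusted p under 0.05 in edgeR's quasi-likelihood test. In 6 of the 9 genes every cisplatin library was above every control library and in 1, Ciita, every one was below, against 32.4% and 31.0% of all tested genes. The median log2 fold change was 1.82 over the 9 genes and 0.04 over all tested genes.

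Among the chains that make the class II dimer, H2-Ab1, the I-A beta chain, was at 61.9, 36.1 and 44.8 CPM in control and at 101, 134 and 233 CPM in cisplatin, so that the groups did not overlap. It rose 3.28-fold, a log2 fold change of 1.71 ± 0.35 (edgeR adjusted p = 0.00209). Its partner H2-Aa was at 99.3, 44.8 and 54.8 CPM in control and at 44.6, 64.1 and 128 CPM in cisplatin, and these ranges overlap widely. The log2 fold change of H2-Aa was 0.25 ± 0.46 (edgeR adjusted p = 0.672), and it was -0.29 without cisplatin library 3. H2-Eb1 was at 23.5, 12.1 and 1.19 CPM in control and at 8.46, 9.70 and 35.3 CPM in cisplatin. Its libraries were spread more within a group than between groups, with a log2 fold change of 0.54 ± 1.06 (edgeR adjusted p = 0.689), which was -0.43 without cisplatin library 3 and -0.01 without control library 3. Class II chains are polymorphic between mouse strains and were counted on a reference sequence. Whether that touched these counts was not tested.

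The 2 chains of I-A stood in another proportion in the groups given cisplatin. The ratio of H2-Aa to H2-Ab1, taken per length from FPKM (fragments scaled to transcript length and library size), was 1.82, 1.41 and 1.39 in control, 0.502, 0.542 and 0.622 in cisplatin and 0.400, 0.529 and 0.651 in YSJZD. Every control library lay above every library given cisplatin, while the cisplatin and YSJZD libraries overlapped. The mean ratio was 1.54 ± 0.244 in control, 0.555 ± 0.0613 in cisplatin and 0.527 ± 0.125 in YSJZD (SD, n = 3). For cisplatin against control the two-sided exact permutation p was 0.10, the smallest that 3 libraries against 3 allow, and 0.133 after Benjamini-Hochberg adjustment over the 4 ratios between class II genes compared in this way. These ratios were chosen after values had been seen. The ratio of H2-Eb1 to H2-Ab1 was 0.260, 0.229 and 0.0183 in control, 0.0573, 0.0497 and 0.104 in cisplatin and 0.0111, 0.0198 and 0.0926 in YSJZD, overlapping in every pair of groups (exact permutation p = 0.40 for cisplatin against control).

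Cd74, the invariant chain, kept close to H2-Ab1. It was at 188, 112 and 146 CPM in control and at 339, 453 and 940 CPM in cisplatin, and rose 3.88-fold (log2 1.96 ± 0.44, edgeR adjusted p = 0.00387). Both genes were highest in cisplatin library 3. The FPKM ratio of Cd74 to H2-Ab1 was 2.94 ± 0.120 in control, 3.39 ± 0.364 in cisplatin and 3.18 ± 0.559 in YSJZD (SD, n = 3). Each cisplatin library was above each control library in this ratio (exact permutation p = 0.10, adjusted 0.133). A pair of Cd74 transcripts were counted, and the implied lengths differ by 192 bases, the longer being the p41 form that carries an added exon. The longer form took 23.3% ± 4.06 of Cd74 counts in control, 18.8% ± 1.14 in cisplatin and 22.1% ± 1.20 in YSJZD (SD, n = 3), and the control range of 19.7% to 27.7% overlaps both other groups.

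All 3 genes of the peptide exchange factor H2-DM rose with cisplatin. H2-DMa, its alpha chain, was at 6.62, 6.27 and 6.29 CPM in control and at 17.5, 27.9 and 22.5 CPM in cisplatin, a rise of 3.53-fold (log2 1.82 ± 0.18, edgeR adjusted p = 2.70e-05). The beta chain gene H2-DMb1 was at 8.59, 12.5 and 11.1 CPM in control and at 42.8, 53.0 and 37.2 CPM in cisplatin, a rise of 4.14-fold (log2 2.05 ± 0.21, edgeR adjusted p = 2.58e-05). H2-DMb2 was at 2.76, 1.09 and 3.38 CPM in control and at 7.22, 14.4 and 19.7 CPM in cisplatin, a rise of 5.66-fold (log2 2.50 ± 0.43, edgeR adjusted p = 0.000744). Neither group overlapped the other in any of the 3 genes. The rises of H2-DMa and H2-DMb1 were known when the genes were chosen, so their p-values are a description. RSEM divides reads between similar transcripts and the 2 beta chain genes are close paralogs, so their split is uncertain. Their summed level was 13.1 ± 1.59 CPM in control, 58.1 ± 8.74 CPM in cisplatin and 55.9 ± 6.47 CPM in YSJZD (SD, n = 3). The FPKM ratio of H2-DMa to this pair summed was 0.261 to 0.357 in control, 0.221 to 0.261 in cisplatin and 0.275 to 0.329 in YSJZD. Cisplatin lay below YSJZD and, narrowly, below control (exact permutation p = 0.10 against control, adjusted 0.133).

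Ctss, the cathepsin that trims the invariant chain, had the largest rise of the 9 genes in this comparison and, relative to its mean, the widest spread of the genes that rose, in cisplatin. Its level was 10.6, 9.03 and 7.28 CPM in control and 108, 321 and 51.0 CPM in cisplatin. The log2 fold change was 4.16 ± 0.59, or 17.9-fold (edgeR adjusted p = 0.000229), and it was 3.15 without cisplatin library 2, which had the highest value. The order of the cisplatin libraries was thus not that of H2-Ab1 and Cd74, which were highest in library 3. The rise of Ctss was known when the genes were chosen, so its p-value is a description.

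YSJZD against cisplatin asks what differs when the decoction is added to cisplatin. It shares its cisplatin libraries with the comparison above, and a member had been noted for its level in YSJZD, so the values of all 9 genes are given as a description. One gene, Ciita, was called higher and 1, Ctss, was called lower, where 35.4% of all tested genes were called, 17.4% higher and 18.0% lower, and nothing is read from these counts. Ctss was at 9.98, 11.2 and 15.7 CPM in YSJZD, below every cisplatin library (log2 -3.70 ± 0.58, and -2.69 without cisplatin library 2). Every YSJZD library was above every cisplatin library in 1 gene and below in 1, against 23.7% and 23.6% of all tested genes, and the remaining 7 genes overlapped. In YSJZD, H2-Ab1 was at 144, 102 and 208 CPM, H2-Aa at 50.8, 47.6 and 119 CPM, and H2-Eb1 at 2.33, 2.95 and 28.1 CPM. Cd74 was at 466, 293 and 841 CPM, again with its highest value in the library where H2-Ab1, H2-Aa and H2-Eb1 were highest. H2-DMa was at 29.7, 27.2 and 27.2 CPM, H2-DMb1 at 40.1, 34.6 and 50.1 CPM and H2-DMb2 at 14.5, 15.6 and 12.8 CPM. The log2 fold change over cisplatin was -0.04 ± 0.34 for H2-Ab1, -0.12 ± 0.46 for H2-Aa, -0.11 ± 0.43 for Cd74, 0.31 ± 0.17 for H2-DMa, -0.09 ± 0.19 for H2-DMb1, 0.06 ± 0.39 for H2-DMb2 and -0.67 ± 1.06 for H2-Eb1. The last was -2.74 without YSJZD library 3.

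YSJZD against control sets the treated kidney beside the uninjured one and shares libraries with both comparisons above. In this comparison 6 of the 9 genes were called higher, Ciita among them, and none was called lower, where 19.3% of all tested genes were called, 9.93% higher and 9.37% lower. The call of Ciita follows from how it was chosen, and without it 5 of 8 genes were called higher. Nothing is read from these counts. The same 6 genes had every YSJZD library above every control library, against 20.8% of all tested genes, and none had every one below, against 19.5%. Apart from Ciita these were H2-Ab1 (log2 1.67 ± 0.35), Cd74 (1.84 ± 0.44), H2-DMa (2.13 ± 0.19), H2-DMb1 (1.96 ± 0.21) and H2-DMb2 (2.56 ± 0.43). Ctss differed by 0.46 ± 0.55, H2-Aa by 0.13 ± 0.46 and H2-Eb1 by -0.14 ± 1.07, the last being -2.21 without YSJZD library 3.

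**Figure D2:**
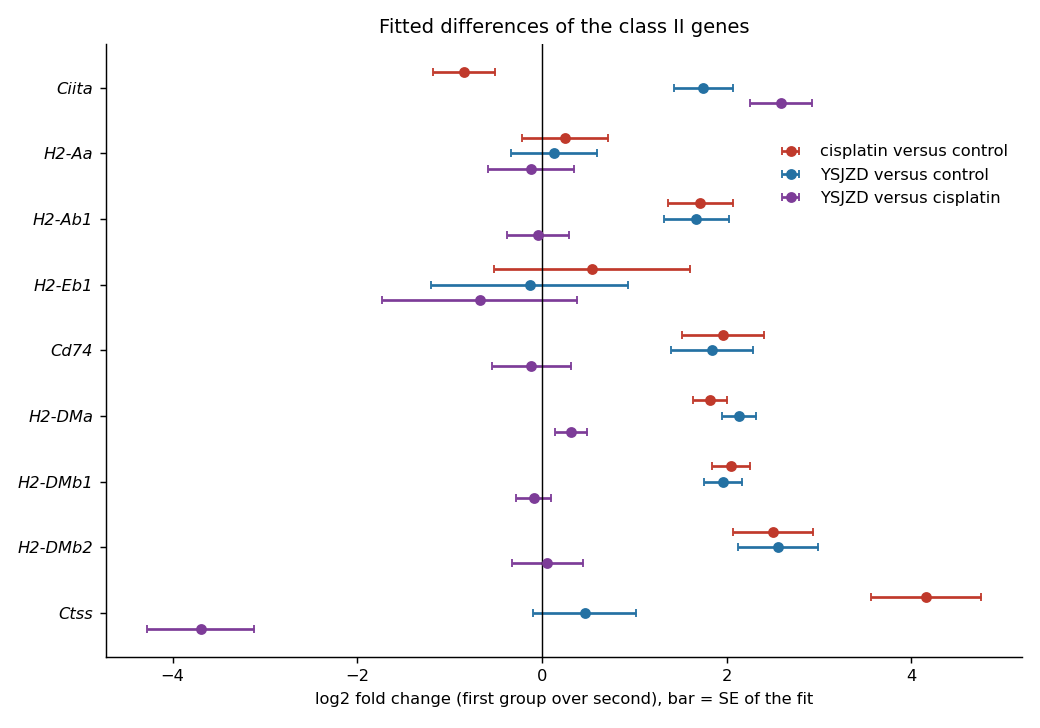
Fitted log2 fold change of each class II gene (horizontal axis) in the 3 comparisons, as points with the SE of the fit. Ciita is the gene that is below 0 for cisplatin over control (-0.84) and above 0 for YSJZD over control (1.75); Ctss is at 4.16 and 0.46 in these comparisons, and H2-DMa, H2-DMb1, H2-DMb2, Cd74 and H2-Ab1 lie between 1.67 and 2.56 in both.

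By mean level per length, the highest and lowest gene were the same in each group, while every other gene changed place, Ctss, H2-Aa and H2-Eb1 among them. In FPKM, Cd74 was highest at 121 ± 25.8 in control, 546 ± 268 in cisplatin and 502 ± 273 in YSJZD, with every library above every library of the next gene (SD, n = 3). H2-Aa followed in control at 65.2 ± 25.0 FPKM and was not separated from H2-Ab1 at 41.4 ± 9.63. In cisplatin H2-Ab1 came next at 157 ± 59.4 FPKM, overlapping Ctss at 150 ± 136 and H2-Aa at 89.7 ± 43.9 in libraries of that group. Ctss was among the lower genes in YSJZD at 8.68, 9.99 and 14.2 FPKM, overlapping H2-Eb1 at 7.73 ± 10.3. Ciita had the lowest mean in all 3 groups, at 0.387 ± 0.0987 FPKM in control, 0.253 ± 0.0929 in cisplatin and 1.49 ± 0.130 in YSJZD, where its highest library overlapped the lowest of H2-Eb1.

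The amount of Ciita RNA was also set against that of single class II genes in the same library. For each 100 CPM of H2-Ab1 there were 3.88, 5.85 and 6.80 CPM of Ciita in control, 0.912, 0.894 and 0.904 CPM in cisplatin, and 6.44, 8.54 and 3.59 CPM in YSJZD. The means were 5.51 ± 1.49, 0.903 ± 0.00924 and 6.19 ± 2.48 (SD, n = 3). All cisplatin libraries lay below the other 6, and control and YSJZD overlapped. The agreement of the 3 cisplatin libraries is closer than counting error on 17 to 34 Ciita counts would give, so that SD understates the error of the ratio. With H2-Aa in place of H2-Ab1 the order was another: there were 2.42 to 5.56 CPM of Ciita per 100 CPM of H2-Aa in control, 1.65 to 2.07 CPM in cisplatin and 6.27 to 18.3 CPM in YSJZD, so that YSJZD lay above the other 6 and cisplatin came close to control. With Cd74 the values were 1.28 to 2.09, 0.225 to 0.272 and 0.889 to 2.98 CPM in the same order of groups, and control and YSJZD overlapped. For H2-DMa the values were 33.72 to 48.42 CPM in control, 4.303 to 9.392 CPM in cisplatin and 27.45 to 32.05 CPM in YSJZD. Every YSJZD library thus lay below every control library, unlike with H2-Aa. With Ciita in them, these ratios are a description.

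**Figure D3:**
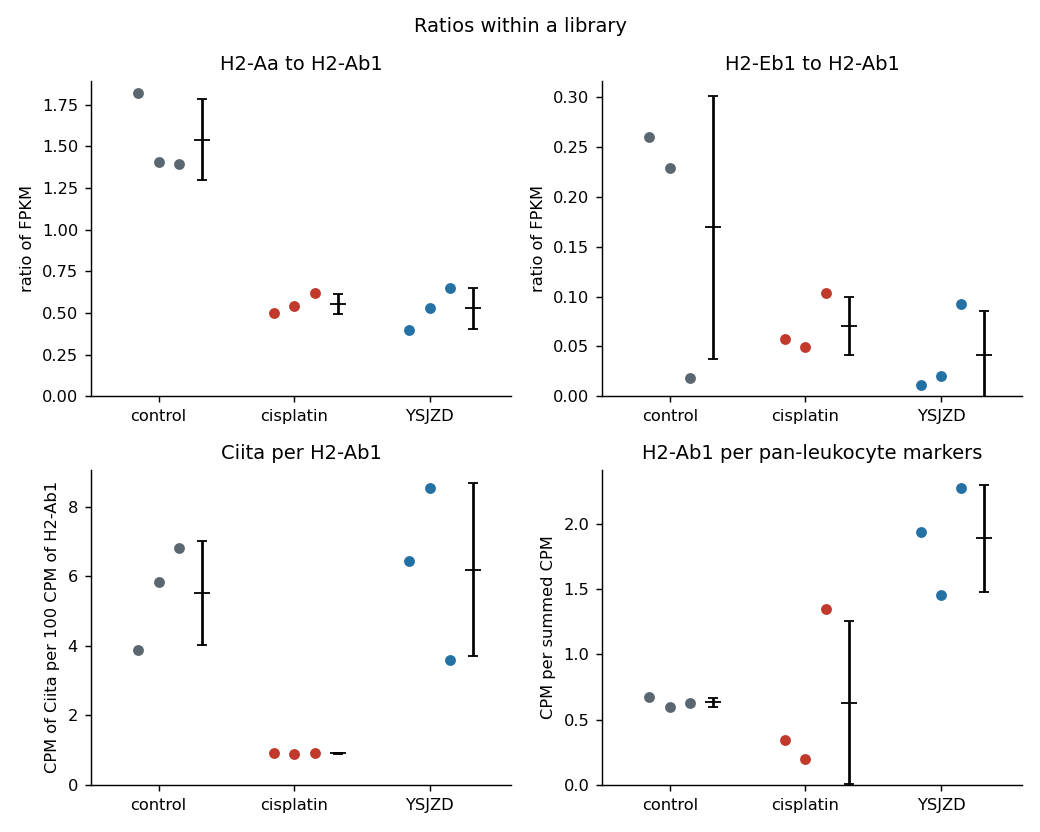
Ratios within each library by group: H2-Aa to H2-Ab1 and H2-Eb1 to H2-Ab1 from FPKM, CPM of Ciita per 100 CPM of H2-Ab1, and CPM of H2-Ab1 over the summed CPM of 8 pan-leukocyte markers (vertical axes from 0). Points are libraries 1 to 3 and bars the mean ± SD (n = 3), drawn no lower than 0. H2-Aa to H2-Ab1 was 1.39 to 1.82 in control and at most 0.651 in the groups given cisplatin.

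Leukocyte markers moved in these samples as well, and in bulk tissue fewer cells of a type and less RNA per cell cannot be told apart. All 8 pan-leukocyte markers, Ptprc (CD45), Tyrobp, Fcer1g, Laptm5, Coro1a, Cd52, Cd53 and Lcp1, rose with cisplatin and fell in YSJZD against cisplatin. Of all tested genes 28.6% rose and 18.0% fell in these comparisons. In YSJZD against control none of the 8 was called by edgeR or DESeq2, or passed at an unadjusted p under 0.05. Their summed level was 60.3 to 92.2 CPM in control, 173 to 671 CPM in cisplatin and 70.1 to 91.5 CPM in YSJZD, and none of them was at 0 in any group. Of 15 macrophage markers 10 rose with cisplatin and 10 fell in YSJZD against cisplatin, where 28.6% of all tested genes rose and 18.0% fell. The macrophage sums were 127 to 182 CPM in control, 415 to 2142 CPM in cisplatin and 145 to 189 CPM in YSJZD. Cisplatin library 2 had the highest and library 3 the lowest of both sums in that group.

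The class II genes were set against these markers in each library. H2-Ab1 per summed pan-leukocyte CPM was 0.672, 0.599 and 0.627 in control, 0.345, 0.200 and 1.35 in cisplatin, and 1.94, 1.46 and 2.27 in YSJZD, so that every YSJZD library was above the other 6. Cd74 per summed pan-leukocyte CPM was 1.86 to 2.04 in control, 0.676 to 5.44 in cisplatin and 4.19 to 9.19 in YSJZD, and the last 2 groups overlapped. H2-Ab1 per summed dendritic CPM also overlapped between them, at 3.92 to 6.57 and 4.91 to 8.35, both above the 1.38 to 2.23 of control. Ctss per summed pan-leukocyte CPM was 0.114, 0.150 and 0.102 in control, 0.368, 0.478 and 0.295 in cisplatin, and 0.135, 0.160 and 0.172 in YSJZD. In the cisplatin group Ctss followed the order of the pan-leukocyte and macrophage sums, and H2-Ab1 and Cd74 did not. H2-Ab1 and Cd74 had the order of the dendritic sums, which were 19.5, 34.3 and 35.5 CPM in cisplatin libraries 1 to 3. The part of leukocytes in the class II values was not tested.

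**Figure D4:**
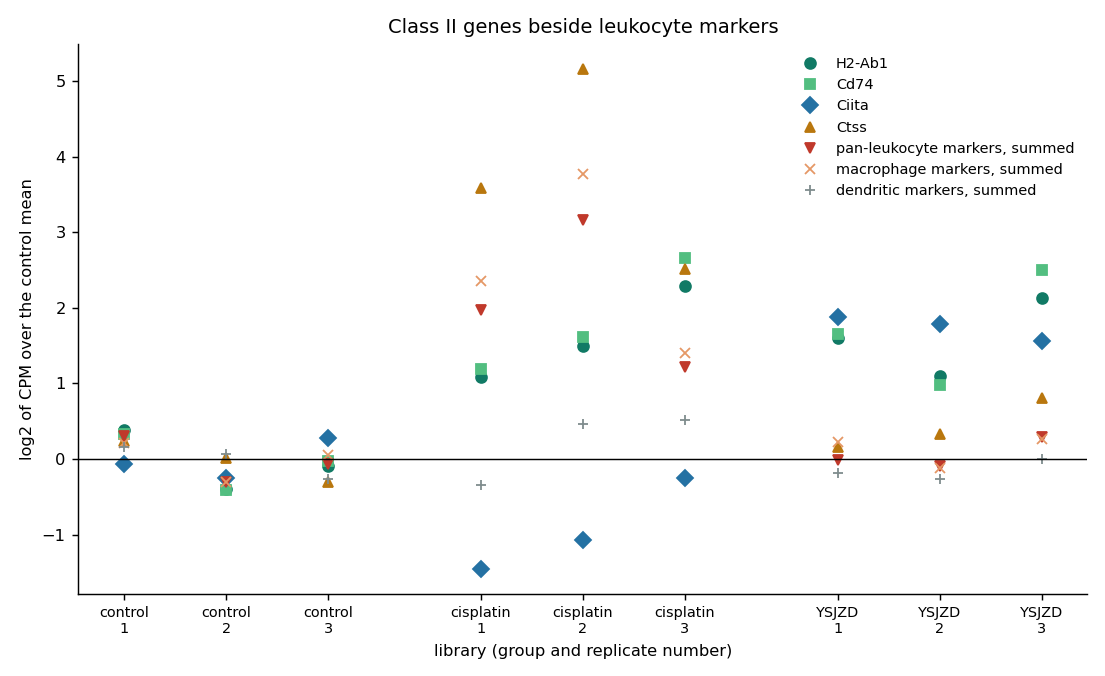
Level of H2-Ab1, Cd74, Ciita and Ctss, and summed level of pan-leukocyte, macrophage and dendritic cell markers, in each of the 9 libraries as log2 of CPM over the control mean (vertical axis, 0 is the control mean). Pan-leukocyte sums in YSJZD (70.1 to 91.5 CPM) lie in the range of control (60.3 to 92.2 CPM) and macrophage sums (145 to 189 CPM) reach just past it (127 to 182 CPM), while H2-Ab1 (102 to 208 CPM) and Ciita (7.47 to 9.28 CPM) lie above theirs.

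Cells that carry class II constantly gave few reads. The 12 markers of conventional dendritic cells summed to 20.7 to 27.7 CPM in control, 19.5 to 35.5 CPM in cisplatin and 20.8 to 24.9 CPM in YSJZD, with none at 0 in a group. Naaa and Zbtb46 held much of these sums. In control, cisplatin and YSJZD their means were 8.22, 8.27 and 8.90 CPM for Naaa and 6.01, 11.6 and 6.06 CPM for Zbtb46. Of the 8 that were tested, 2 fell with cisplatin, Clec9a and Cd209a, and none rose. This is near the 26.0% of all tested genes that fell, where 28.6% rose, so nothing is read from the count that fell. In YSJZD against cisplatin none was called by edgeR or DESeq2 and 1 passed at an unadjusted p under 0.05. Flt3, the receptor that maintains these cells, had 20, 16 and 5 expected counts over the 3 libraries of control, cisplatin and YSJZD, and Xcr1 had 25, 20 and 4. The B cell markers summed to 11.8 to 19.2 CPM in control, 1.61 to 5.54 CPM in cisplatin and 2.10 to 4.45 CPM in YSJZD, and 10 of the 12 were too low to test. Jchain, a gene of antibody-secreting cells, made up most of the control sum, and without it the sums overlapped, at 1.59 to 2.69 CPM in control, 1.24 to 3.60 CPM in cisplatin and 0.759 to 1.64 CPM in YSJZD. Of the 2 tested, Jchain fell with cisplatin and Fcmr rose (log2 2.84 ± 0.75, edgeR adjusted p = 0.00892). Ms4a1 had 6, 1 and 1 counts over the libraries of control, cisplatin and YSJZD. The part of these cells in the class II values was not tested.

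Among the genes of proteins that work on the X and Y boxes with Ciita, 2 of 10 rose and 2 fell with cisplatin, shares below the 28.6% of all tested genes that rose and the 26.0% that fell, and 1 rose in YSJZD against cisplatin. In YSJZD against cisplatin 17.4% of all tested genes rose. Against control, 1 of the 10 rose and 3 fell in YSJZD, where 9.93% of all tested genes rose and 9.37% fell. Rfx5, the large RFX subunit, was at 15.8, 19.8 and 17.8 CPM in control, 23.2, 31.1 and 72.9 CPM in cisplatin and 28.4, 29.5 and 31.6 CPM in YSJZD. It rose with cisplatin (log2 1.25 ± 0.35, edgeR adjusted p = 0.0121). The log2 fold change of Rfx5 in YSJZD against cisplatin was -0.51 ± 0.34 (edgeR adjusted p = 0.278). The other RFX subunits, Rfxap and Rfxank, did not pass the test in any comparison. Of the NF-Y subunits with cisplatin, Nfyb rose (log2 0.94 ± 0.19), Nfyc fell by 0.95 ± 0.12 on the log2 scale and Nfya was at -0.36 ± 0.17 (edgeR adjusted p = 0.103).

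Of 10 tested genes known to act on the Ciita gene, 7 rose and none fell with cisplatin, where 28.6% of all tested genes rose. Usf1, Prdm1 and Mitf did not pass the test, and Mitf was at a log2 fold change of -0.48 ± 0.23. In YSJZD against cisplatin 5 fell and none rose, where 18.0% of all tested genes fell, and 3 rose in YSJZD against control, where 9.93% did. Irf1, a factor induced by interferons that acts on the Ciita gene, was at 9.68, 8.60 and 10.6 CPM in control, 29.2, 33.2 and 39.2 CPM in cisplatin and 27.3, 38.0 and 38.6 CPM in YSJZD. Irf1 rose in both groups against control, with log2 fold changes of 1.81 ± 0.18 and 1.85 ± 0.18 (edgeR adjusted p = 2.77e-05 and 0.000193), and differed by 0.03 ± 0.17 between them (edgeR adjusted p = 0.903). Spi1 (PU.1), a myeloid factor that acts on the Ciita promoter of myeloid cells, was at 2.11 to 3.27 CPM in control, 11.9 to 41.5 CPM in cisplatin and 3.02 to 3.86 CPM in YSJZD. Prdm1, a repressor of Ciita in plasma cells, was at 1.31 to 2.05 CPM in control, 1.37 to 2.74 CPM in cisplatin and 0.350 to 0.949 CPM in YSJZD, and fell in YSJZD against cisplatin (log2 -1.57 ± 0.45, edgeR adjusted p = 0.021).

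Of 18 tested genes of interferon gamma signalling and its targets, 15 rose and none fell with cisplatin (median log2 1.98), and Jak1, Gbp4 and Cxcl9 did not pass the test. In the other comparisons 10 fell and none rose in YSJZD against cisplatin (median -0.89), and 7 rose in YSJZD against control (median 1.05). Medians over all tested genes were 0.04, -0.01 and 0.01, and the shares called in those directions were 28.6%, 18.0% and 9.93%. Ifng itself had 1, 0 and 0 expected counts over the libraries of control, cisplatin and YSJZD. Ifngr1, a receptor chain, was at 21.5 to 30.6 CPM in control, 127 to 171 CPM in cisplatin and 45.2 to 66.7 CPM in YSJZD, with no overlap between groups. Nlrc5, the coactivator that does for class I genes what Ciita does for class II, was at 1.75, 1.97 and 3.58 CPM in control, 19.2, 18.9 and 27.9 CPM in cisplatin and 6.07, 6.69 and 8.60 CPM in YSJZD. It rose with cisplatin (log2 3.17 ± 0.31, edgeR adjusted p = 2.20e-05) and fell in YSJZD against cisplatin (log2 -1.62 ± 0.28, edgeR adjusted p = 0.00207), so its highest group was cisplatin where that of Ciita was YSJZD. Cxcl10, a chemokine induced by interferons, was at 0.801 to 1.85 CPM in control, 4.12 to 17.8 CPM in cisplatin and 6.71 to 20.9 CPM in YSJZD, and rose in both groups against control.

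Of 9 tested genes that otherwise load class II or turn it over, 6 rose and 1 fell with cisplatin, where 28.6% of all tested genes rose and 26.0% fell. In YSJZD against cisplatin 1 rose and 2 fell, where 17.4% of all tested genes rose and 18.0% fell. In YSJZD against control 3 rose, where 9.93% of all tested genes did. Ctsl, the cathepsin that trims the invariant chain in cells without Ctss, was at 314 to 419 CPM in control, 955 to 2789 CPM in cisplatin and 491 to 720 CPM in YSJZD. It rose with cisplatin (log2 2.14 ± 0.37, edgeR adjusted p = 0.000781) and fell in YSJZD against cisplatin (log2 -1.42 ± 0.36, edgeR adjusted p = 0.013). Ifi30, a reductase of antigens in the endocytic pathway, rose with cisplatin (log2 0.91 ± 0.22) and fell in YSJZD against cisplatin (log2 -0.86 ± 0.22, edgeR adjusted p = 0.0143). Lgmn, a protease that starts the cleavage of the invariant chain, rose in both groups against control (log2 0.77 ± 0.18 and 1.07 ± 0.18). Marchf8, a ubiquitin ligase that sends class II to breakdown, was at 247 to 288 CPM in control, 133 to 139 CPM in cisplatin and 214 to 234 CPM in YSJZD. It fell with cisplatin (log2 -0.94 ± 0.12, edgeR adjusted p = 0.00011) and rose in YSJZD against cisplatin (log2 0.74 ± 0.12, edgeR adjusted p = 0.00137). H2-Oa and H2-Ob, the chains of the H2-O inhibitor of H2-DM, had 11, 6 and 10 and 17, 9 and 21 expected counts over the groups and were too low to test, as was H2-Eb2.

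Co-stimulatory molecules act beside class II at the contact with T cells. The list of co-stimulation genes used here also held Cd274, an inhibitory ligand, and Cd4, a T cell co-receptor. Of the 6 tested genes of this list 3 rose with cisplatin, Cd80, Cd40 and Cd274, where 28.6% of all tested genes rose. In YSJZD against cisplatin 4 fell, these 3 and Cd86, where 18.0% of all tested genes fell. In YSJZD against control none was called by edgeR or DESeq2 and 1 passed at an unadjusted p under 0.05. Cd80, a ligand of CD28, was at 0.132 to 0.219 CPM in control, 1.68 to 4.00 CPM in cisplatin and 0.262 to 0.475 CPM in YSJZD. Cd274 (PD-L1) was at 1.68 to 2.98 CPM in control, 14.0 to 25.5 CPM in cisplatin and 2.04 to 3.61 CPM in YSJZD.

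Genes whose pattern over the 9 libraries was most like that of Ciita or H2-Ab1 were found among 13210 genes by the root mean square difference of centred log2 CPM. The nearest to Ciita were Slc6a13, Rab6b and Grip2, at 0.45 to 0.47, where Ciita itself varied by 1.11 about its mean. Slc6a13, a transporter of GABA and taurine, was at 60.0, 71.0 and 72.4 CPM in control, 27.8, 36.8 and 31.4 CPM in cisplatin and 133, 123 and 119 CPM in YSJZD, in the same order of groups as Ciita. No class II gene was among the 8 nearest to Ciita. Cd74 was nearest to H2-Ab1, at 0.16, followed by Tap2, a subunit of the class I peptide transporter encoded in the same gene complex, at 0.28. Tap2 was at 24.4, 14.0 and 18.6 CPM in control, 57.1, 58.7 and 94.5 CPM in cisplatin and 55.1, 56.5 and 59.5 CPM in YSJZD. These are descriptions over 9 libraries.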

How the data were processed

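Gene expression was measured in 9 kidney cortex libraries, sequenced on a DNBSEQ instrument per the labels. The authors deposited 58075 transcripts with Entrez numbers. Their read count columns hold expected counts from RSEM 1.3.1 per the submitters' processing notes, which also name DESeq2 1.4.5 and the human build GRCh38. The other per-sample columns that the authors deposited carry no unit and were taken as FPKM, from the transcript lengths they imply. Aligner and mouse build: not given in the sources used here. Library totals were 15029274 to 16690471.

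Counts were summed per gene (17963 genes, 17847 with a symbol in the RefSeq table of GRCm38.p6) and rounded. All 9 libraries were fitted in edgeR 4.0.16 under R 4.3.3 (filterByExpr, 13954 genes tested, TMM factors 0.855 to 1.105, quasi-likelihood test, adjusted p under 0.05 over all tested genes). Fold changes carry the SE of the fit and levels the SD. A ratio used an exact permutation test. The fit was tested on simulated data. Genes were named by a rule: all members, members of the gene lists by role, and the nearest genes in pattern. Members and lists were chosen with earlier results of these data known, and the rises of H2-DMa, H2-DMb1 and Ctss were among those results.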

Additional observations from a re-analysis of the deposited data

How the results depend on the processing

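For each comparison 13 alternatives were run: other scalings and filters, DESeq2 1.42.0, the replicate number as a block, the 6 libraries compared alone, and each library left out. The 6 class II genes that rose with cisplatin passed in all of them, with adjusted p-values of at most 0.0196. H2-Eb1 changed sign in cisplatin against control, to -0.17 with the replicate block, -0.01 without control library 3 and -0.43 without cisplatin library 3, and H2-Aa to -0.29 without cisplatin library 3. With 1 library left out H2-Eb1 ran from -0.43 to 1.42 and H2-Aa from -0.29 to 0.66 in that comparison. Ciita kept its sign in every alternative: -1.25 to -0.61 for cisplatin over control, 2.36 to 2.99 for YSJZD over cisplatin and 1.64 to 1.93 for YSJZD over control. The genes called in YSJZD against control fell from 2694 to 1607 without control library 1 and 1699 without control library 2, and leaving out 1 library gave 1607 to 2241, with fewer samples in the fit. Scaling by library totals alone moved the median of all genes to 0.27 in cisplatin against control, where 66.1% of calls were then higher in place of 52.4%, and to 0.20 in YSJZD against control, with 75.4% in place of 51.4%. The replicate block gave 7348, 4590 and 2367 calls for cisplatin against control, YSJZD against cisplatin and YSJZD against control, in place of 7616, 4942 and 2694. Deviations of same-numbered libraries correlated at -0.20 to 0.09 over 9 pairs, so the numbers do not pair the libraries. Over the alternatives the small gene lists gave other counts: loading and turnover genes lower in YSJZD against cisplatin 0 to 5 (2 under the reported settings) and higher in YSJZD against control 1 to 4 (3), promoter factors higher with cisplatin 2 to 4 (2) and lower in YSJZD against control 0 to 3 (3), Ciita regulators lower in YSJZD against cisplatin 3 to 6 (5), co-stimulation genes higher with cisplatin 3 to 5 (3), endothelial markers lower in YSJZD against control 0 to 7 (4) and neutrophil markers higher there 1 to 7 (4). All 8 pan-leukocyte markers were called higher with cisplatin and lower in YSJZD against cisplatin in each alternative. At the depth of Ciita, H2-Oa, H2-Ob and the lymphocyte markers, small differences were not detectable.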

Other observations

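Some lymphocyte markers were spread widely over the libraries. Jchain, the joining chain of secreted antibodies, was at 16.5, 17.3 and 10.2 CPM in control, 0.109, 1.94 and 0.372 CPM in cisplatin and 1.34, 0.984 and 3.38 CPM in YSJZD. It fell with cisplatin (log2 -4.17 ± 0.77, edgeR adjusted p = 0.00113) and in YSJZD against control (log2 -2.94 ± 0.71, edgeR adjusted p = 0.0169). Cd8a, the alpha chain of CD8, ranged within groups from 0.397 to 9.53 CPM in control and from 0.328 to 4.98 CPM in YSJZD, and from 0 to 0.228 CPM in cisplatin. Of the 7 T cell markers 2 were tested, and the other, Lck, went the opposite way. Its means were 0.898, 2.04 and 0.912 CPM in control, cisplatin and YSJZD. Cd3e, Cd3d and Cd3g had 8, 6 and 11 counts in control, 8, 4 and 6 in cisplatin and 4, 7 and 12 in YSJZD. They were too low to test, so no change in T cells is read from Cd8a.

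Neutrophil markers were 42.9 to 130 CPM in sum in cisplatin, 1.66 to 2.04 CPM in control and 4.15 to 10.04 CPM in YSJZD. All 8 tested rose with cisplatin and fell in YSJZD against cisplatin, and 4 rose in YSJZD against control. The shares of all tested genes called in those directions were 28.6%, 18.0% and 9.93%. The 7 endothelial markers summed to 415 to 517 CPM in control, 263 to 629 CPM in cisplatin and 241 to 275 CPM in YSJZD. In YSJZD against control 4 of these fell and none rose, where 9.37% of all tested genes fell and 9.93% rose. Gas6, a ligand of the Axl and Mertk receptors and the eighth gene in likeness to Ciita, was at 262 to 297 CPM in control, 289 to 333 CPM in cisplatin and 961 to 1073 CPM in YSJZD.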
